A study of Mus musculus with 6 samples.

Results

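Macrophage polarization genes were examined in RNA-seq libraries of cells isolated as liver sinusoidal endothelial cells (LSECs) from mice bearing colorectal cancer liver metastasis (CRCLM) xenografts. The 10 genes Arg1, Nos2, Chil3, Retnla, Il4ra, Acod1, Mgl2, Stat6, Irf4 and Irf5 were taken by symbol from the 60832 genes of the deposited table, and all 10 were found. There were 3 libraries from bevacizumab-sensitive and 3 from bevacizumab-resistant xenografts of the human colorectal cancer line HCT116. The mice were male BALB/c nude animals, which lack mature T cells but keep macrophages, neutrophils and B cells, with tumor cells injected into the left main liver lobe. Resistance had been acquired under repeated bevacizumab, an antibody against human VEGF-A, and the vehicle mice of the study received IgG. The labels do not give the age of the mice at isolation, or how the mice behind the sensitive libraries were treated. Cells of both groups were bound to anti-CD146 beads, and the labels of all 6 libraries state 24 h of culture. They do not say whether a library came from 1 mouse or from pooled mice, so the p-values measure the spread between these samples only.

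Macrophages take up different programs according to the signals around them. IL-4 and IL-13 bind receptors that contain the Il4ra chain and activate STAT6, which in mouse macrophages drives Arg1, Chil3, Retnla and Mgl2, while IRF4 takes part in the same program. Interferon-gamma and bacterial lipopolysaccharide (LPS) act through factors that include NF-κB and IRF5 and induce Nos2 and Acod1. In the liver, such programs are carried by resident Kupffer cells and by macrophages derived from monocytes.

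Total counts on genes lay between 17599326 and 20726684 per library, so that a floor of 3 counts corresponded to between 0.145 and 0.170 CPM (counts scaled to the library total), for counting error only. The cells were labelled as endothelial, and the paper reports its isolated LSECs as CD146-positive at high purity by flow cytometry. Yet the CPM of 18 macrophage and Kupffer cell markers summed to between 25329 and 38402. The sums were 381 to 964 for 15 LSEC markers and 62.3 to 509.7 for 17 pan-endothelial markers. Mcam, which encodes CD146, had between 0.303 and 3.84 CPM. Replicate 2 of the sensitive group stood apart, with a Pearson's r across genes of 0.860 to 0.901 to the other libraries, where the other 10 pairs had 0.954 to 0.974. In such bulk samples, fewer cells of a type and less RNA per cell cannot be told apart.

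The promoters of Chil3 and Retnla are shown because these secreted products of the IL-4 program lay at the opposite ends of the levels below. RefSeq promoters (250 bases before to 50 after the start, GRCm38.p6) were matched by symbol for 8 of the 10 genes, all but Arg1 and Nos2. Both strands were searched for the STAT-type palindromes TTCNNNNGAA and TTCNNNGAA, the interferon-response motif GAAANNGAAA and the C/EBP-type motif TTGCNNAA, and capitals mark a match.
Chil3, chr3:106167515-106167814, minus strand: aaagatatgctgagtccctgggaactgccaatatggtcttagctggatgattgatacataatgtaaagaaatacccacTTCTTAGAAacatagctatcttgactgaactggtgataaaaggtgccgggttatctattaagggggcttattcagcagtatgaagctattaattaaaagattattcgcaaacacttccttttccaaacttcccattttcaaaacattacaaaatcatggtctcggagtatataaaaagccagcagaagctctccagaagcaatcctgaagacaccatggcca
Retnla, chr16:48842359-48842658, plus strand: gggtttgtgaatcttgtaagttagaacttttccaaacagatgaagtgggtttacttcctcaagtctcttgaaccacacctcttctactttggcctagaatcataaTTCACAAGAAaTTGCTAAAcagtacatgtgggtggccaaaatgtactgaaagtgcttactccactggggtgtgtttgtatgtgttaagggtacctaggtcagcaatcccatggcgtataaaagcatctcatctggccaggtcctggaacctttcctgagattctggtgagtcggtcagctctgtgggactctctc
In the Chil3 promoter, TTCNNNGAA matched from 172 bases before the start, and in the Retnla promoter TTCNNNNGAA matched from 145 and TTGCNNAA from 134 bases before it. None of these 4 motifs matched in the promoters of Il4ra, Acod1, Mgl2, Stat6, Irf4 and Irf5. Of the 32851 promoters in the table, 6.95% held TTCNNNNGAA, 8.30% TTCNNNGAA, 3.44% GAAANNGAAA and 10.8% TTGCNNAA. A match describes these letters in this window and is no evidence of binding.

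Chil3, which encodes the chitinase-like lectin Ym1, was by far the most abundant of the 10 genes per length. Its median over the 6 libraries was 2195 FPKM (the authors' counts scaled to gene length and library total), and it ranked between place 8 and place 24 among all genes of a library. Arg1 followed with a median of 91.6 FPKM, then Irf5 with 72.3, Stat6 with 59.2 and Il4ra with 40.1. Acod1 had 3.02, Irf4 0.901, Nos2 0.222 and Mgl2 0.120 FPKM, and the median of Retnla was 0. The order was not equally firm at every step. Chil3 exceeded Arg1, Irf5 exceeded Stat6 and Il4ra exceeded Acod1 in 6 of 6 libraries, and Stat6 exceeded Il4ra in 5. Arg1 exceeded Irf5 in 3 libraries. At each lower step, from Acod1 to Irf4, Irf4 to Nos2, Nos2 to Mgl2 and Mgl2 to Retnla, the higher gene led in 4 libraries.

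**Figure D1:**
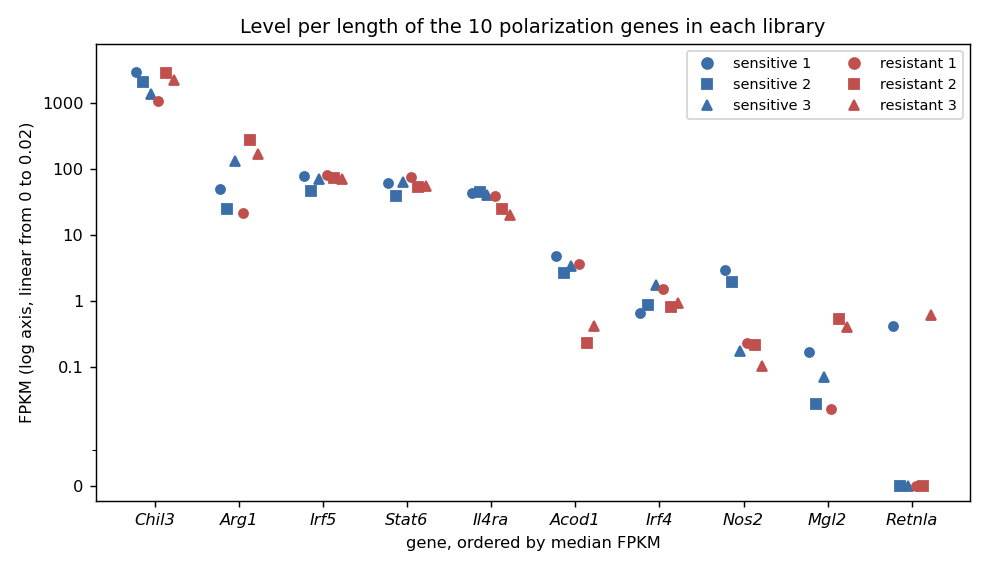
FPKM of the 10 polarization genes (log axis, linear from 0 to 0.02), with 1 point per library, blue for sensitive and red for resistant, and circles, squares and triangles for replicates 1, 2 and 3. Chil3 lies between 1108 and 2999 FPKM, and Retnla is at 0 in 4 libraries.

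Of the products of the IL-4 program, Chil3 and Arg1 were abundant and varied between libraries of both groups, and neither had an unadjusted p under 0.05. Chil3 (chromosome 3 of GRCm38, 106147554 to 106167564) had 4895, 3501 and 2292 CPM in sensitive replicates 1, 2 and 3, against 1808, 4753 and 3665 CPM in the same order of resistant replicates. The highest library was a sensitive one, the lowest a resistant one, and the groups overlapped. The change, on the log2 scale and as resistant against sensitive throughout, was -0.11 ± 0.443 (SE, adjusted p = 0.970). Changes, their standard errors (SE) and both kinds of p come from the quasi-likelihood test of edgeR, with Benjamini-Hochberg adjustment where a p is called adjusted. The direction rested on single libraries, and the change was 0.10 when sensitive replicate 1 was left out and 0.21 when resistant replicate 1 was. How reads shared with the near-identical paralog Chil4 were counted is not given in the sources used here, and Chil4 itself had between 0 and 6 counts.

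Arg1 encodes arginase 1, which turns arginine into ornithine and urea, and lies on chromosome 10 from 24915221 to 24927484. It had 114, 55.9 and 294 CPM in the sensitive replicates and 47.6, 612 and 380.2 CPM in the resistant replicates. The 2 highest libraries were resistant, but the lowest was resistant too, and the libraries spanned 12.9-fold. The log2 fold change was 1.16 (SE 0.917, adjusted p = 0.940). It fell to 0.43 without replicate 2 of the resistant group and reached 2.02 without replicate 3 of the sensitive group. Without replicate 1 of the resistant group it was 1.68, with an unadjusted p of 0.0454 from the same test.

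Hepatocytes use Arg1 in the urea cycle, so their markers are given beside it. The CPM of 15 hepatocyte markers summed to 88.3, 88.2 and 31.7 in the sensitive replicates and to 69.1, 170.1 and 97.1 in the resistant replicates. All 11 of them that were tested had a log2 fold change above 0 (median 1.00). Among these, 1, Tat, had an unadjusted p under 0.05, against 3.08% of all tested genes. Some of the 11 were scarce. Tat had 8, 0 and 3 counts in the sensitive and 19, 27 and 14 in the resistant replicates, and Hpd and Tdo2 were similarly low. Cyp2e1 had 106 counts in replicate 2 of the resistant group, against 4 to 18 in the other libraries. The urea cycle enzymes Cps1 and Otc, which mark hepatocytes, stayed near 0, with between 0 and 13 counts of Cps1 and 0 counts of Otc in every library. Alb, the albumin gene, had 59.9, 60.0 and 18.0 CPM in the sensitive and 40.8, 87.0 and 66.3 CPM in the resistant replicates. Replicates 2 and 3 of the resistant group had the highest hepatocyte sums and the highest Arg1. Replicate 3 of the sensitive group had the lowest hepatocyte sum and the third highest Arg1. The part of hepatocyte RNA in Arg1 was not tested.

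Mgl2 and Retnla were hardly detected. Mgl2, which encodes the galactose-type lectin CD301b (chromosome 11, 70130329 to 70137550), had 7, 1 and 3 counts in the sensitive and 1, 22 and 16 in the resistant replicates. The 2 higher resistant libraries exceeded every sensitive one, while replicate 1 of the resistant group lay at or below them all. Retnla, which encodes the secreted protein RELMα or Fizz1 (chromosome 16, 48842551 to 48844461), had 5 counts in replicate 1 of the sensitive group, 7 in replicate 3 of the resistant group and 0 in the other 4 libraries. At this depth a difference in Retnla was not detectable. Neither gene passed the filter on low counts, so that 8 of the 10 genes were tested. When all genes with any count were fitted, Mgl2 had a log2 fold change of 1.85 (SE 1.35, adjusted p = 0.720) and Retnla of 0.54 (SE 2.18, adjusted p = 0.963).

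Nos2 and Acod1, the effectors of the interferon-gamma and LPS side, were scarce, and neither passed adjustment. Nos2 encodes the inducible nitric oxide synthase, which also consumes arginine, and lies on chromosome 11 from 78920787 to 78960254. It had 13.1, 8.58 and 0.778 CPM in the sensitive replicates, from 258, 151 and 16 counts. The resistant replicates had 1.01, 0.961 and 0.468 CPM, from 21, 19 and 9 counts. Replicates 1 and 2 of the sensitive group stood above all other libraries, and replicate 3 of that group lay inside the resistant range. The log2 fold change was -3.25 (SE 0.954), with an unadjusted p of 0.0112 and an adjusted p of 0.940 in edgeR's quasi-likelihood test. With the Wald test of DESeq2 its adjusted p was 0.0782, and by limma-voom the unadjusted p was 0.143. The size of the change depended on the scale, with -2.11 on log2(FPKM + 0.1) and -1.02 on log2(FPKM + 1), where a pseudocount shrinks the change of a low gene.

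The summed level of neutrophil markers was also highest in replicates 1 and 2 of the sensitive group, though for Camp, Ltf and Mmp8 a resistant library exceeded 1 of these. The CPM of 13 such markers summed to 5526, 7156 and 659 in the sensitive replicates and to 2202, 1610.1 and 367 in the resistant replicates, and all 13 had a log2 fold change below 0 (median -1.69). None of the 13 was at or under 3 counts in every library. Of them, 2, Retnlg and Csf3r, had an unadjusted p under 0.05, against 3.08% of all tested genes. The 10 monocyte markers, with summed CPM from 1038 to 1858 in sensitive and from 534 to 1081 in resistant libraries, were also all below 0 (median -1.29). The part of neutrophil or monocyte RNA in Nos2 was not tested.

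Acod1 encodes the enzyme that makes itaconate from cis-aconitate (chromosome 14, 103046977 to 103056573). The sensitive replicates had 12.7, 6.99 and 8.85 CPM and the resistant replicates 9.50, 0.607 and 1.09 CPM. Replicate 1 of the resistant group lay within the sensitive range, and the other 2 resistant libraries, with 12 and 21 counts, lay below every sensitive one. The log2 fold change was -1.44 (SE 0.930, adjusted p = 0.940). Without replicate 1 of the resistant group it was -3.50, with an unadjusted p of 0.000425 and an adjusted p of 0.755 in that test. Without replicate 2 or 3 of the resistant group it was -0.94 or -1.01. With limma-voom it was -2.29 (unadjusted p = 0.0241, adjusted p = 0.893), and with the replicate number as a block in edgeR -2.35 (unadjusted p = 0.0243, adjusted p = 0.938).

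**Figure D2:**
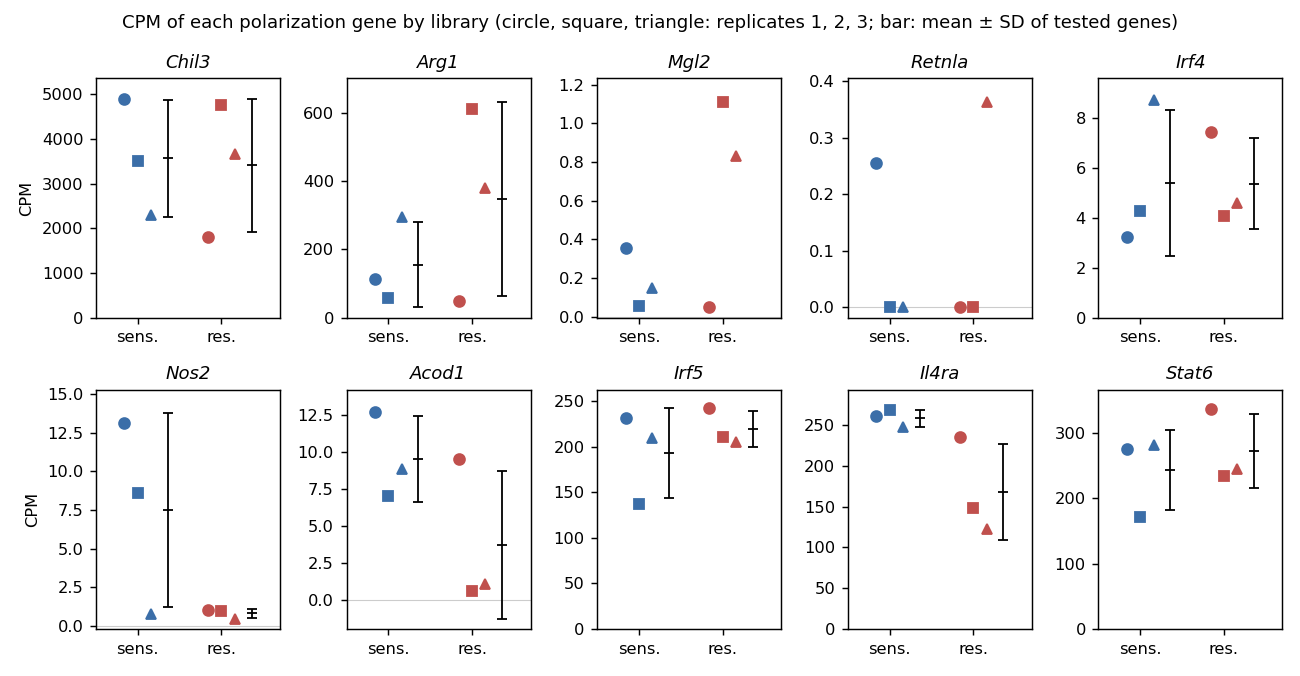
CPM of each polarization gene by library, sensitive in blue and resistant in red, with the mean and SD of the 3 libraries beside them for the 8 tested genes. Il4ra is the gene whose groups do not overlap, and Arg1 and Mgl2 are high, and Acod1 low, in resistant replicates 2 and 3.

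Il4ra, the receptor chain shared by IL-4 and IL-13, was the only one of the 8 tested genes whose groups did not overlap. It lies on chromosome 7 from 125552120 to 125579474. The sensitive replicates had 261, 268 and 247 CPM and the resistant replicates 235, 148 and 123 CPM. The means were 258 ± 10.6 and 168 ± 58.8 CPM (SD, n = 3 each), and an exact two-sided permutation test gave p = 0.1, the lowest value possible with 3 libraries against 3. The log2 fold change was -0.70 (SE 0.269), with an unadjusted p of 0.0346 and an adjusted p of 0.940 in edgeR's quasi-likelihood test. Replicate 1 of the resistant group was close to the sensitive libraries. The unadjusted p rose above 0.05 with library totals alone (0.0611) and in the same test without replicate 1 (0.0538) or 2 (0.0586) of the sensitive group or replicate 2 (0.109) or 3 (0.125) of the resistant group.

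None of the transcription factors Stat6, Irf5 and Irf4 had an unadjusted p under 0.05 in edgeR's test, and 0 passed adjustment. Stat6, the STAT that the IL-4 receptor activates (chromosome 10, 127642986 to 127660957), had 276, 172 and 281 CPM in the sensitive and 337, 234 and 245 CPM in the resistant replicates. Its log2 fold change was 0.11 (SE 0.231, adjusted p = 0.944). Irf5 (chromosome 6, 29526625 to 29541871) had 231, 137 and 209 CPM against 242, 211 and 205 CPM, with a log2 fold change of 0.14 (SE 0.205, adjusted p = 0.940). In both genes replicate 2 of the sensitive group was the lowest library and replicate 1 of the resistant group the highest, and the groups overlapped. Without replicate 2 of the sensitive group, the log2 fold changes were -0.04 for Stat6 and -0.00368 for Irf5, and without replicate 1 of the resistant group that of Stat6 was -0.04. Irf5 shares 1045 bp with Tnpo3 on the opposite strand and Stat6 shares 40 bp with Nab2, and whether the counting used strand is not given in the sources used here.

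Irf4 (chromosome 13, 30749226 to 30766976) was rare in these libraries. The sensitive replicates had 3.21, 4.26 and 8.71 CPM and the resistant replicates 7.43, 4.05 and 4.58 CPM, from 63 to 179 counts. All resistant libraries lay within the sensitive range. The log2 fold change was -0.09 (SE 0.473, adjusted p = 0.976), and without replicate 3 of the sensitive group it was 0.40.

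Of the 8 tested genes, 0 passed an adjusted p of 0.05, where 0% of the 15474 genes tested did so in edgeR's quasi-likelihood test. At an unadjusted p under 0.05 there were 2, Nos2 and Il4ra, where 3.08% of all tested genes passed. Both were lower in the resistant group. Of all tested genes, 2.54% were lower at such a p, which is 82.6% of those passing it. The groups did not overlap for 1 of the 8, against 8.39% of all tested genes. DESeq2's Wald test also called 0 of the 8 after adjustment, and 24 genes in all. The median log2 fold change of the 8 was -0.10, against 0.01 for all tested genes.

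The members differed widely in how much they varied over the 6 libraries. Nos2 spanned 4.47, Acod1 4.07 and Arg1 3.80 on the log2 CPM scale, and 3.27%, 4.99% and 6.55% of the tested genes had a larger span. Chil3 and Irf4 each spanned 1.51 and Il4ra 1.34, with larger spans in 40.6%, 40.6% and 47.1% of the genes. Stat6 spanned 0.69 and Irf5 0.54, and 79.5% and 87.5% of the genes had a larger span. Nos2, Acod1 and Arg1 thus varied most, and Stat6 and Irf5 least.

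**Figure D3:**
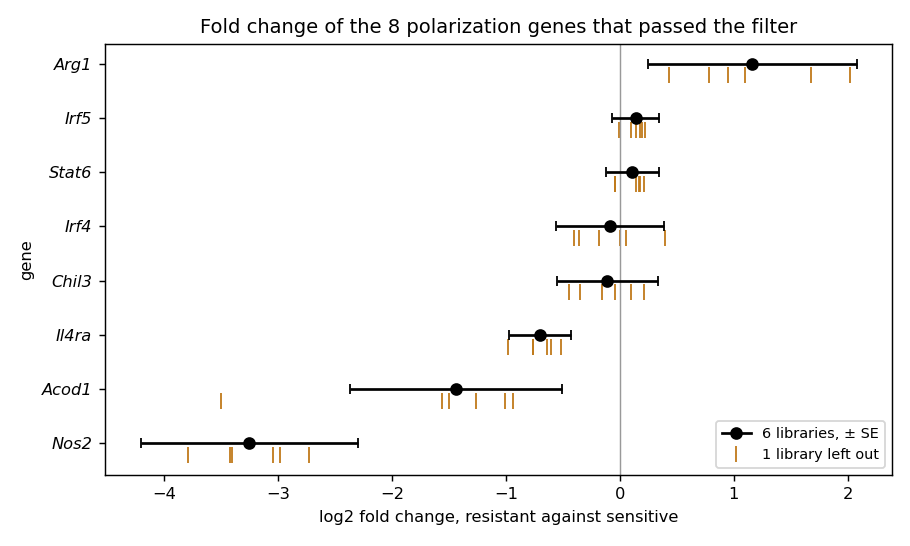
Log2 fold change of the 8 tested genes with its standard error (black) and the value with each library left out in turn (orange ticks). Nos2, Il4ra and Acod1 stay below 0 and Arg1 above 0 in all 6 such fits.

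Because arginase 1 and nitric oxide synthase compete for arginine, their levels were compared within each library per length. The FPKM of Arg1 was 17.2, 13 and 754 times that of Nos2 in the sensitive replicates and 93.5, 1269.8 and 1618 times in the resistant replicates. Replicate 3 of the sensitive group lay among the resistant libraries, and an exact permutation test of the log2 ratios gave p = 0.2 (two-sided). Arg1 over Acod1 gave 10.5, 9.41 and 39.2 in the sensitive and 5.89, 1188 and 409.8 in the resistant replicates (exact permutation test, two-sided, p = 0.4). Arg1 exceeded Nos2 and Acod1 in all 6 libraries.

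Around these genes, the arginine and polyamine list had a median log2 fold change of 0.01. Of its 17 tested genes, 0 passed adjustment and 2 had an unadjusted p under 0.05, against 3.08% of all tested genes. Both were lower in the resistant group. They were Nos2 and Sat1, the spermidine acetyltransferase, with 427, 751 and 452 CPM in the sensitive and 386, 335 and 305 CPM in the resistant replicates. The groups of Sat1 did not overlap, as in 8.39% of all tested genes. Arg2, the mitochondrial arginase, had 57.5, 25.2 and 91.3 CPM in the sensitive and 119.9, 39.5 and 44.0 CPM in the resistant replicates, and its groups overlapped. Odc1, which makes putrescine from ornithine, had a log2 fold change of 0.20 (SE 0.463). For Gch1, needed for the cofactor of nitric oxide synthase, it was -0.19 (SE 0.185), for Ass1, which rebuilds arginine from citrulline, -0.23 (SE 0.617), for Asl, the next enzyme, -0.51 (SE 0.370), and for the arginine transporter Slc7a2 0.18 (SE 0.622).

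The list of 17 genes around itaconate and the tricarboxylic acid cycle, Acod1 included, had a median log2 fold change of -0.03, and 0 of 17 had an unadjusted p under 0.05 in edgeR's test or passed adjustment. The groups did not overlap for 2 of them, against 8.39% of all tested genes. Cs, citrate synthase, had 186, 106 and 187 CPM in the sensitive and 199, 211 and 198 CPM in the resistant replicates. Sdhc, a subunit of succinate dehydrogenase, had 109.8, 61.8 and 121 CPM against 125, 138 and 135 CPM. Both were slightly higher in every resistant library, and in both replicate 2 of the sensitive group was the lowest.

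The IL-4 signalling list, from ligands to inhibitors, had a median log2 fold change of 0.01. Of its 17 tested genes, 0 passed adjustment and 2 had an unadjusted p under 0.05, against 3.08% of all tested genes. Both were lower in the resistant group. They were Il4ra and Il2rg, the common gamma chain that pairs with Il4ra, which had 34.6, 31.4 and 27.3 CPM in the sensitive and 27.7, 15.4 and 18.0 CPM in the resistant replicates. Replicate 1 of the resistant group lay just inside the sensitive range of Il2rg. Il13ra1, the other partner of Il4ra, had a log2 fold change of -0.15 (SE 0.184). The ligands were scarce, with between 29 and 66 counts of Il4 and 0 counts of Il13 in every library. The kinases Jak1 and Jak3 had log2 fold changes of 0.11 (SE 0.256) and -0.44 (SE 0.298), and the inhibitor Socs3 had -0.77 (SE 0.573). Klf4 and Pparg, factors that work with STAT6, had 0.01 (SE 0.295) and 0.08 (SE 0.399).

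Over a wider list of 30 genes that IL-4 or IL-13 induce, 24 were tested and 0 passed adjustment. At an unadjusted p under 0.05, 1 was higher and 2 were lower, against 3.08% of all tested genes in both directions. The groups did not overlap for 2 that were higher and 2 that were lower, against 8.39% of all tested genes in both directions. The median log2 fold change was -0.10, with 10 genes above and 14 below 0, and it was 0.11 with sensitive replicate 1 and 0.03 with resistant replicate 2 left out. Ccl24, an eosinophil chemokine, had 50.3, 119.7 and 52.3 CPM in the sensitive and 131, 166 and 204 CPM in the resistant replicates, so that every resistant library was higher. Pdcd1lg2, which encodes PD-L2, had at most 1.68 CPM and did not overlap in the other direction. Mmp12, macrophage elastase, had a log2 fold change of 1.75 (SE 0.756), with 397 CPM in replicate 3 of the resistant group against 29.3 to 104 CPM in the other libraries. The mannose receptor Mrc1 (335 to 1192 CPM) and the lectin Clec10a, a paralog of Mgl2 (78.5 to 258 CPM), were well expressed, with log2 fold changes of -0.12 (SE 0.441) and -0.90 (SE 0.385). Neither passed an unadjusted p of 0.05.

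Of 30 genes that interferon-gamma or LPS induce, 24 were tested. At an unadjusted p under 0.05, 3 were lower in the resistant group, against 2.54% of all tested genes, and 0 were higher. After adjustment, 0 passed. There were 19 below and 5 above 0, with a median log2 fold change of -0.55 against 0.01 for all tested genes. Among lists of cell type markers, the lowest medians were -1.69 for neutrophil (13 of 13 below 0) and -1.29 for monocyte markers (10 of 10). The pan-endothelial median was -1.08 (16 of 17). Of these pan-endothelial markers, 5 had an unadjusted p under 0.05 and 6 did not overlap, against 3.08% and 8.39% of all tested genes. Medians were -0.97 for lymphocyte, mast cell and eosinophil, -0.40 for LSEC, -0.33 for macrophage and Kupffer cell (11 of 18 below 0) and -0.21 for dendritic cell markers. Those of hepatocyte (1.00) and stellate cell markers (0.47) lay above 0. The part of such cells in the values of the interferon-gamma and LPS response list was not tested. The median of the interferon-gamma and LPS response list was -0.21 without replicate 3 and -1.04 without replicate 1 of the resistant group. Nos2 and Tnf, an inflammatory cytokine, were among the 3 genes of that list that were lower at an unadjusted p under 0.05. Tnf had 10.4, 11.0 and 5.21 CPM in the sensitive and 6.37, 3.24 and 4.11 CPM in the resistant replicates. Replicate 3 of the sensitive group lay below replicate 1 of the resistant group, so that the groups overlapped. Gbp5, an interferon-induced GTPase, had a log2 fold change of -0.92 (SE 0.432) and did not pass.

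**Figure D4:**
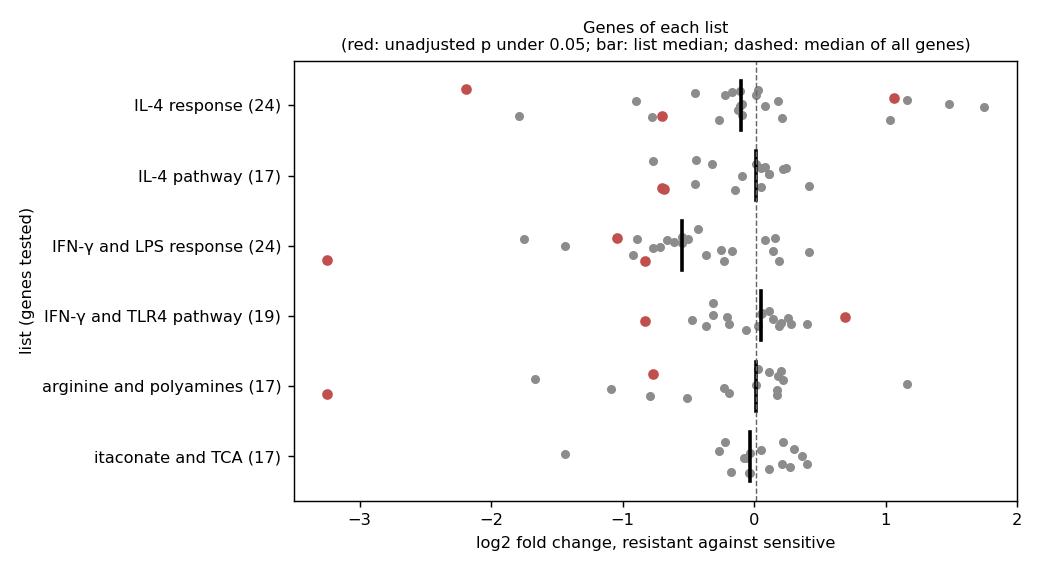
Log2 fold change of the tested genes of 6 lists, with red points for an unadjusted p under 0.05, a black bar for the list median and a dashed line for the median of all tested genes (0.01). The interferon-gamma and LPS response list has its median at -0.55, and the other lists lie between -0.10 and 0.05.

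Upstream of that list, 19 genes of interferon-gamma and TLR4 signalling were tested. Of these, 0 passed adjustment (median 0.05). At an unadjusted p under 0.05, 1 was higher and 1 lower, against 3.08% of all tested genes in both directions. The higher gene was Cd14, an LPS co-receptor, with 117, 118 and 80.3 CPM in the sensitive and 228, 143 and 167 CPM in the resistant replicates. Its groups did not overlap, as in 8.39% of all tested genes. Ifng itself had 1 count in all 6 libraries together, and its receptor chain Ifngr1 had a log2 fold change of -0.47 (SE 0.301).

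The families of the members were read in the same way, beginning with the interferon regulatory factors. None of the 9 genes of the family had an unadjusted p under 0.05 in edgeR's test or passed adjustment, and the median log2 fold change was -0.13. Irf8, a factor of the macrophage lineage, had a log2 fold change of -0.21 (SE 0.212), Irf1 of -0.37 (SE 0.248), Irf9 of -0.39 and Irf7 of -0.73 (SE 0.516). Among the STAT genes, Stat2 had a log2 fold change of -0.52 (SE 0.307) and Stat3 of -0.01 (SE 0.245). Among the 4 tested chitinase-family genes, 1, Chil1, was lower in the resistant group at an unadjusted p under 0.05, against 2.54% of all tested genes. In edgeR's test its unadjusted p was 0.0475 and its adjusted p 0.940. Chil1 had 66.3, 94.3 and 9.58 CPM in the sensitive and 23.4, 13.7 and 3.95 CPM in the resistant replicates. Its groups overlapped, as those of Chil3 did. Retnlg, the resistin-like gene of neutrophils, was the only tested gene of its family, with 264, 939 and 9.24 CPM against 38.8, 34.7 and 11.3 CPM, and Retnlb had 0 counts. The large sensitive values of Chil1 and Retnlg fell in replicates 1 and 2, as those of Nos2 and of the summed neutrophil markers did. Retnlg is itself part of that sum.

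**Figure D5:**
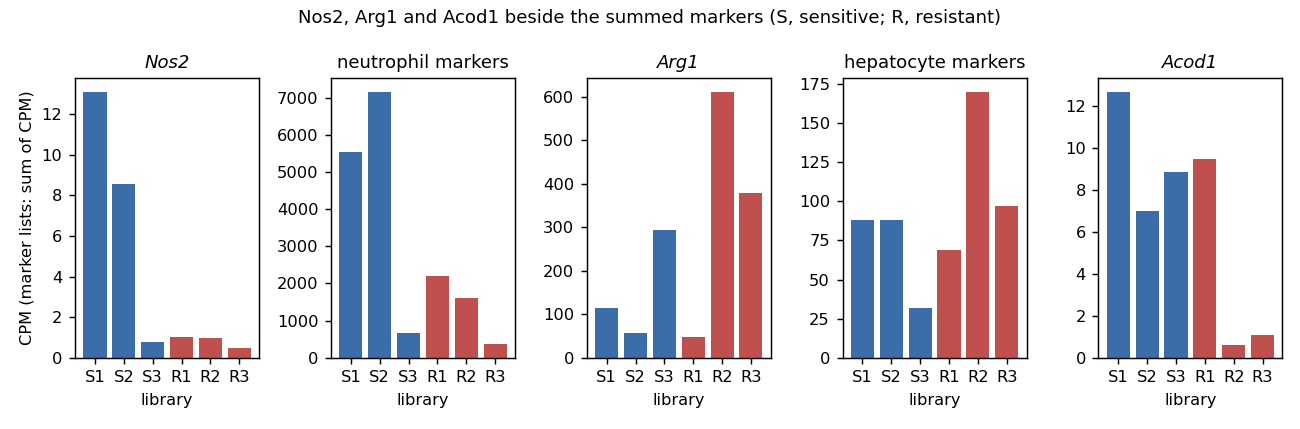
CPM of Nos2, Arg1 and Acod1 beside the summed CPM of 13 neutrophil and 15 hepatocyte markers, with 1 bar per library (S, sensitive, R, resistant). Nos2 and the neutrophil sum are both highest in sensitive replicates 1 and 2.

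Kupffer cell markers were also read beside the members. Timd4, a receptor of resident Kupffer cells, had 109.7, 138 and 94.0 CPM in the sensitive and 82.0, 12.4 and 20.1 CPM in the resistant replicates, and like Il4ra it did not overlap. Aif1, a general macrophage gene, was the other of the 18 macrophage markers whose groups did not overlap, against 8.39% of all tested genes. Replicates 2 and 3 of the resistant group, the lowest in Timd4, were the lowest in Il4ra and Acod1 and the highest in Arg1 and Mgl2. Other Kupffer cell markers did not all follow Timd4. Clec4f was also lowest in both libraries, but Vsig4 was lowest in replicate 2 of the sensitive group (350.4 CPM). Cd5l was lowest in replicate 1 of the resistant group (4245 CPM). Clec4f and Cd5l, further Kupffer cell genes, had log2 fold changes of -0.60 (SE 0.427) and -0.38 (SE 0.311), and Adgre1, which encodes F4/80, had 0.52 (SE 0.459). Of the 18 markers, 7 were above and 11 below 0, with a median of -0.33. The part of such cells in the members' values was not tested.

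The genes whose profiles over the 6 libraries were closest to those of the more abundant members were also listed, with each member set against 9239 other protein-coding genes that had an average log2 CPM of at least 3. Likeness was the root mean square difference of log2 CPM after centring on the mean of the 6 libraries. For Chil3 they were Pdlim1 (0.0237) and Bcl6 (0.109), for Il4ra Map4k1 (0.102) and Evl (0.105), for Stat6 Decr2 (0.0482) and Naip2 (0.0485), and for Irf5 Dnm2 (0.0318) and Ptcd1 (0.0327). No gene came as close to Arg1, whose nearest were Lyz2 (0.528), the lysozyme gene of myeloid cells, and St8sia4 (0.536). The difference was not scaled, so it tends to be larger for genes that vary more. Arg1 spanned 3.80 on the log2 CPM scale, against 0.69 for Stat6 and 0.54 for Irf5. Lyz2 had 2203, 1766 and 5196 CPM in the sensitive and 1405, 6488 and 6459.8 CPM in the resistant replicates, with the high values in the libraries that were high in Arg1. With 6 libraries and this many genes, close profiles are a description only.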

How the data were processed

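RNA was sequenced from 6 libraries of cells labelled as LSECs, 3 per group, assigned to groups and replicates by title. The authors aligned paired-end reads with HISAT2 2.0.5, counted them per gene with featureCounts 1.5.0-p3 and deposited the counts without normalization. The authors also deposited FPKM, which equals count over library total and 1 length per gene. The processing notes name mm9. Coordinates are of GRCm38 (GENCODE M21), matched by identifier. A further deposited table holds the authors' own DESeq2 comparison (group means, fold changes and p-values) and was not used. Whether libraries were made from poly(A) or ribosomal RNA-depleted RNA differs within the sources.

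Testing was done with edgeR 4.0.16 under R 4.3.3: filterByExpr with the groups, TMM factors and the robust quasi-likelihood test, two-sided, without covariates, with Benjamini-Hochberg adjustment over 15474 genes. CPM printed per library use the library total. Log2 CPM used a prior count of 2. Standard errors follow from the F statistic. The script was tested on simulated counts. Total counts per library give the depth, and reads without molecular identifiers make counting error a lower limit.

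The members and lists were chosen with earlier results of these data known. Genes named are the members, fixed partners and the 3 largest changes of a list among genes whose average log2 CPM was 3 or more. Others, chosen after their values were seen, had an unadjusted p under 0.05 or groups that did not overlap. Also named were genes with the closest profiles, genes that overlap a member, and single markers outside these rules. Such markers include Vsig4, Camp, Ltf, Mmp8, Otc, Mcpt8, Prg2, Siglecf and Cpa3. Alternatives were other size factors, DESeq2 1.42.0, limma-voom and limma on log2(FPKM + 1) or log2(FPKM + 0.1) with limma 3.58.1, other filters, a block for the replicate number, and leaving out 1 library in turn with the genes kept. Same-numbered libraries are not stated to share a mouse or day, so the block was no main analysis. Values of some listed genes are not reported here.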

Additional observations from a re-analysis of the deposited data

How the results depend on the processing

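At an adjusted p under 0.05 there were 0 genes, also with RLE size factors, library totals alone, limma-voom, a minimum of 10 counts per library, the replicate block and each library left out (from 0 to 0), against 24 with DESeq2's Wald test and 2 with no filter. The number at an unadjusted p under 0.05 was 476, and 732 with DESeq2, 2036 with no filter, and from 166 to 971 with each library left out, lowest without replicate 3 of the resistant group (224 without its replicate 2) and highest without replicate 3 of the sensitive group. Of the genes at an unadjusted p under 0.05, 82.6% were lower in the resistant group, against 73.2% with limma-voom, 68.5% with log2(FPKM + 1), 71.2% with log2(FPKM + 0.1) and 70.0% to 80.7% with each library left out. The median of the IL-4 response list was -0.10, from -0.30 to 0.11 with each library left out, and that of the interferon-gamma and LPS response list -0.55, from -1.04 to -0.21. Of 119 values of the 8 tested members under 15 alternatives, 109 kept their direction and 0 passed an adjusted p of 0.05, the smallest being 0.0782 for Nos2 with DESeq2. The 10 that changed direction were Irf4 with limma-voom (0.01), log2(FPKM + 1) (0.02) and log2(FPKM + 0.1) (0.06), and fits without a library, with ranges of -0.45 to 0.21 for Chil3, -0.04 to 0.21 for Stat6, -0.40 to 0.40 for Irf4 and -0.00368 to 0.22 for Irf5. The cause was not tested. Nos2 had no value with at least 10 counts in every library. Same-numbered libraries had correlations of -0.000932, 0.0343 and 0.194 between their deviations from the group means. Libraries of unlike number were not compared in this way, so these values cannot decide whether libraries are paired. With the replicate block, 467 genes had an unadjusted p under 0.05, and the log2 fold change of Acod1 was -2.35 (unadjusted p = 0.0243), of Arg1 0.70 and of Nos2 -2.73. Depth limits what can be said of Retnla and Mgl2, with at most 22 counts in a library.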

Other observations

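Il4 can come from lymphocytes, mast cells, basophils and eosinophils, and 14 markers of such cells were read. Their CPM summed to between 13 and 31.7 in the 6 libraries. Of these markers, 7 were tested, and 6 of the 7 had a log2 fold change below 0 (median -0.97), with 0 at an unadjusted p under 0.05 in edgeR's test and 0 after adjustment. Mcpt8, a basophil protease, had 32, 140 and 6 counts in the sensitive and 60, 0 and 8 in the resistant replicates. Prg2, an eosinophil granule protein, had 19, 49 and 2 counts against 33, 0 and 1. Replicates 2 and 3 of the resistant group and replicate 3 of the sensitive group were the lowest in both genes, which were chosen after their values were seen. Cpa3 was lowest in the same libraries, but other markers of the list were not. Siglecf had 32, 14 and 32 counts in the sensitive and 20, 18 and 4 in the resistant replicates. Cd4 was highest in replicate 3 of the sensitive group (22.7 CPM).

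The CPM of 9 dendritic cell markers summed to between 125 and 416, with 5 tested and a median log2 fold change of -0.21, and Cd209a and Siglech had at most 3 counts in every library. That of 10 stellate cell and fibroblast markers summed to between 99.0 and 369, highest in replicate 2 of the resistant group, and 8 of 9 tested were above 0 (median 0.47). None of the tested genes of these lists had an unadjusted p under 0.05 in edgeR's test or passed adjustment.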
